A study of Mus musculus with 2 samples.

Results

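The genes described here are 10 members of the NF-kB system that were measured in single cells from mouse tumours: the 5 subunits Nfkb1, Nfkb2, Rel, Rela and Relb, and the 5 inhibitors or modulators Nfkbia, Nfkbid, Nfkbiz, Bcl3 and Tnfaip3. They were taken by gene symbol, and all 10 were found among the 32285 gene rows that both count matrices list. The study isolated tumour-infiltrating regulatory T cells (Tregs, the CD4 T cells that depend on Foxp3) from C57BL/6 mice aged 8 to 12 weeks, by magnetic and fluorescence sorting, and profiled them with a 10x Genomics 3' protocol. The cKO library carried the genotype label JMJD1CTregcKO, a deletion of Jmjd1c in Tregs, and the WT library carried the label JMJD1CWT. Jmjd1c encodes a protein of the JmjC family, many of whose members remove methyl groups from histones. The tumour model, the number and sex of the animals, whether animals were pooled, the promoter that drove the deletion and the exons removed are not stated in the labels. Each group had 1 library, so differences between the libraries could not be tested and have no replicate check. Intervals are at the 95% level and cover counting error only.

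NF-kB proteins act as dimers. In resting cells IkB proteins such as the product of Nfkbia hold p65 (Rela) and c-Rel (Rel) in the cytoplasm, until the IKK kinase marks the inhibitor for destruction. The products of Nfkb1 and Nfkb2 are precursors that are processed to p50 and p52, and the p100 precursor binds RelB. Bcl3, Nfkbid (IkBNS) and Nfkbiz (IkB-zeta) are atypical IkB proteins that work in the nucleus with p50 or p52 dimers and can raise or lower transcription. Tnfaip3 encodes A20, a ubiquitin-editing enzyme that shuts the pathway off upstream of IKK, and Nfkbia and Tnfaip3 are textbook targets of NF-kB. In T cells c-Rel is required for the development of thymic Tregs, and p65 and c-Rel maintain their identity in the periphery.

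The cKO library contained 4105 barcoded cells with 37666195 UMIs in all (unique molecular identifiers, which count captured transcripts), and the WT library 3905 with 49063944 UMIs. After removal of barcodes with under 500 genes or 10% or more mitochondrial UMIs, 4026 cKO and 3842 WT cells remained, with medians of 6953 and 9088 UMIs. The libraries shared 2 barcodes. Xist, expressed from the inactive X chromosome, had a UMI in 0.273% of cKO and 97.1% of WT cells, and the Y-linked Ddx3y in 45.9% of cKO and 0% of WT cells. Sex and genotype can therefore not be told apart in any comparison below. In Treg cells the Jmjd1c level was 83.6% of WT in cKO (78.9 to 88.6). Tags from the 3' end may lie outside the deleted exons, so this value does not check the genotype labels.

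Cells were put into 3 classes by UMIs of marker genes. The Treg class required at least 1 UMI of Cd3e and Cd3g together, at least 6 of Foxp3, Il2ra, Ikzf2 and Ctla4, at most 1 of Cd8a and Cd8b1 and at most 2 of Lyz2 and C1qa. It held 2834 cells in cKO (70.4%) and 3240 in WT (84.3%), with median depths of 6427 and 8546 UMIs. All 7 Treg markers stood at 10 CPM (UMI counts scaled to the same total in each class and library) or more in both libraries, and the class rule itself uses 4 of them. The CD8 T class required at least 3 UMIs of Cd8a and Cd8b1 and held 407 cKO and 213 WT cells. Of these, 48.6% in cKO and 84.5% in WT also met the Treg sum of 6 UMIs, and their median depth was 10688 UMIs in cKO and 18131 in WT. That class is therefore a mixture, and its results are given for the full class and for a narrower one. The myeloid class required at least 10 UMIs of Lyz2 and C1qa and held 321 cKO and 103 WT cells, of which 32.1% and 60.2% carried a Cd3e or Cd3g UMI. Its results are given with and without such cells. Both classes hold cells outside the intended sort.

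In Treg cells 8 of the 10 genes were higher in cKO and 2, Rel and Tnfaip3, were lower. By a fixed rule of size, at least 1.5-fold on the scale log2((CPM cKO + 5)/(CPM WT + 5)), 5 genes were higher, namely Relb, Nfkbia, Nfkbid, Nfkbiz and Bcl3. Among the 8678 genes that averaged 5 CPM or more, 4.21% were higher by that rule. Only Rel was lower by it, where 4.04% of all genes were. The median log2 ratio was 0.53 over the 10 genes and -0.02 over all genes. The nuclear IkB genes and Nfkbia had the highest ratios, and among the 5 subunits Rel alone lay below 0. In the gap around the rule, Relb at 0.60 was the nearest gene inside it and Tnfaip3 at -0.54 the nearest outside.

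**Figure D1:**
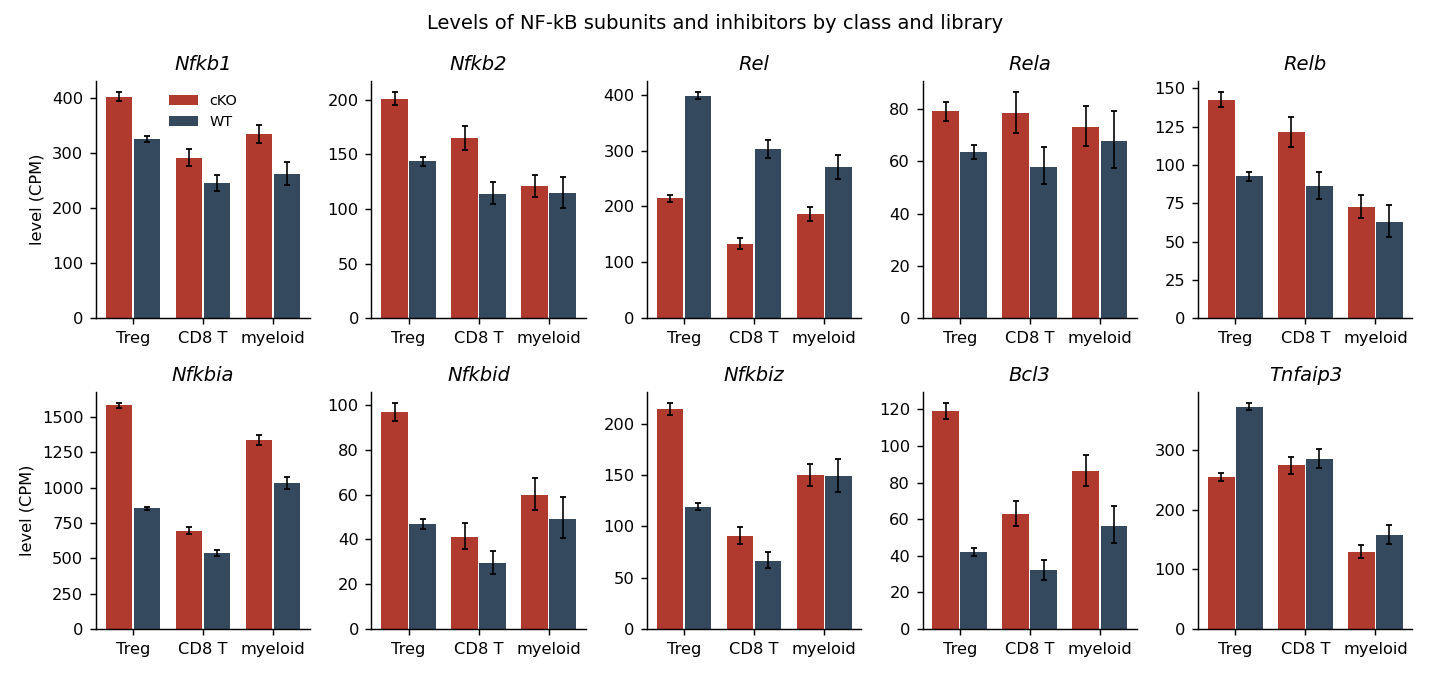
Level of each gene in CPM (y axis, from 0) in Treg, CD8 T and myeloid cells (x axis), with cKO in red on the left and WT in dark blue on the right of each pair; bars are levels over all cells of the class in 1 library, and lines are 95% Poisson intervals. Rel is lower in cKO in all 3 classes, and in Treg cells Bcl3 stands at 119 CPM in cKO and 42.0 CPM in WT.

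Of the subunits, Rel (ENSMUSG00000020275; chromosome 11, 23736847 to 23770970, minus strand, mm10), which encodes c-Rel, stood at 214 CPM in cKO Treg cells (208 to 220; 5045 UMIs) and 398 CPM in WT Treg cells (392 to 404; 15166 UMIs). The cKO level was 53.9% of WT (52.2 to 55.6), a log2 ratio of -0.88. No other subunit was lower in cKO. Relb (ENSMUSG00000002983; chromosome 7, 19606217 to 19629438, minus strand), the partner of p52 in the non-canonical pathway, stood at 142 CPM in cKO (138 to 147) and 92.4 CPM in WT (89.4 to 95.5), or 154% of WT (147 to 162). Its log2 ratio of 0.60 was just past the size rule.

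Nfkb2 (ENSMUSG00000025225; chromosome 19, 46304320 to 46312385, plus strand) encodes p100, the precursor of p52. It stood at 201 CPM in cKO (195 to 207) and 143 CPM in WT (140 to 147), or 140% of WT (135 to 146), which was short of 1.5-fold. It overlaps Psd and AC114539.1 on the other strand, which reached at most 24.8 CPM in Treg cells, and whether reads were counted by strand is not stated in the sources. Nfkb1 (ENSMUSG00000028163; chromosome 3, 135584655 to 135691547, minus strand), the source of p105 and p50, stood at 402 CPM in cKO (394 to 411) and 326 CPM in WT (320 to 332). That is 124% of WT (120 to 127). Rela (ENSMUSG00000024927; chromosome 19, 5637483 to 5648130, plus strand), which encodes p65, stood at 79.1 CPM in cKO (75.5 to 82.7) and 63.5 CPM in WT (61.0 to 66.1), or 124% of WT (117 to 132). The canonical partners Rel and Rela thus lay on opposite sides of WT, with counting intervals that did not overlap between libraries for either gene.

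Nfkbia (ENSMUSG00000021025; chromosome 12, 55489410 to 55492647, minus strand), the classical cytoplasmic inhibitor IkB-alpha, had 37249 UMIs in cKO and 32549 in WT Treg cells. It stood at 1582 CPM in cKO (1566 to 1598) and 854 CPM in WT (845 to 863), or 185% of WT (183 to 188), with a log2 ratio of 0.89. The raw UMIs were also more numerous in cKO, from fewer and shallower Treg cells than in WT.

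The 3 nuclear IkB genes were all higher in cKO by the size rule. Bcl3 (ENSMUSG00000053175; chromosome 7, 19808462 to 19822770, minus strand), a cofactor of p50 and p52 homodimers, stood at 119 CPM in cKO (115 to 123; 2801 UMIs) and 42.0 CPM in WT (40.0 to 44.1; 1602 UMIs). Its cKO level was 283% of WT (266 to 301) and its log2 ratio of 1.40 was the farthest from 0 among the 10 genes. Nfkbid (ENSMUSG00000036931; chromosome 7, 30421732 to 30428746, plus strand), which in mice is known to favour Foxp3 expression in developing Tregs, stood at 96.9 CPM in cKO (93.0 to 101) and 46.7 CPM in WT (44.6 to 49.0). This was 207% of WT (195 to 221), a log2 ratio of 0.98. Nfkbiz (ENSMUSG00000035356; chromosome 16, 55811375 to 55838899, minus strand), an inducible IkB protein that acts with p50 on secondary response genes, stood at 214 CPM in cKO (209 to 220) and 119 CPM in WT (116 to 123), or 180% of WT (173 to 187). Bcl3 overlaps the gene models Gm16175 and Gm16174 on the other strand, which reached at most 2.62 CPM.

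Tnfaip3 (ENSMUSG00000019850; chromosome 10, 19000910 to 19015657, minus strand) went against the other inhibitors. It stood at 254 CPM in cKO (248 to 261; 5989 UMIs) and 373 CPM in WT (366 to 379; 14204 UMIs), or 68.3% of WT (66.2 to 70.4). The log2 ratio of -0.54 was short of 1.5-fold, and it was -0.78 when cells were thinned to 4000 UMIs before classes were assigned. A20 and IkB-alpha are both products of NF-kB target genes, and their transcripts lay on opposite sides of WT.

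**Figure D2:**
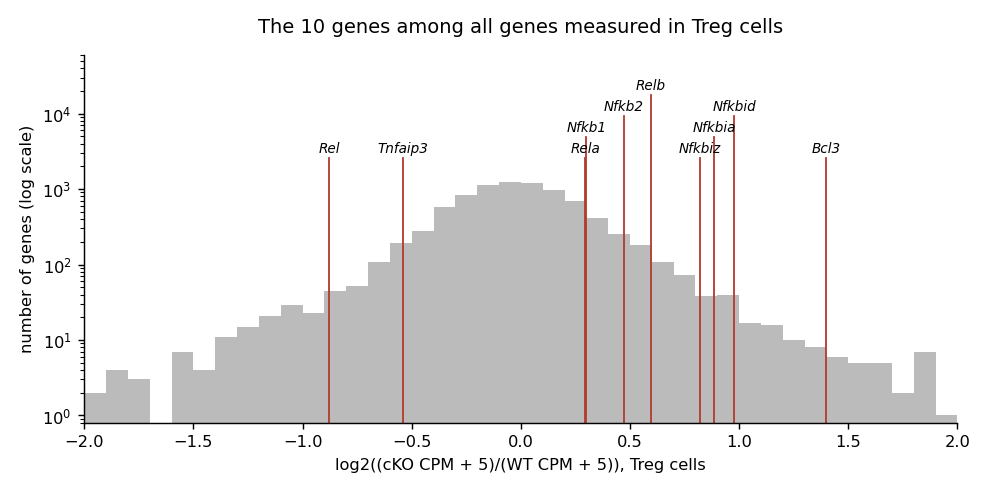
Number of genes (y axis, log scale) by log2 ratio of cKO over WT in Treg cells (x axis, bins of 0.1), for all genes that averaged 5 CPM or more; red lines mark the 10 NF-kB genes, and the few genes beyond 2 in either direction are not drawn. Bcl3 at 1.40 and Nfkbid at 0.98 lie farthest right and Rel at -0.88 farthest left.

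Several other measures differed between the Treg cells of the libraries. The 11 myeloid markers summed to 223 CPM in cKO and 81.2 CPM in WT. Of these, 4 reached 10 CPM in cKO and 2 in WT, so neither sum describes the whole list. Myeloid markers that were not used in the class rules stood in Treg cells at 0.288 to 0.466% of their myeloid level in cKO and at 0.0840 to 0.490% in WT. At the highest of those rates, carried-over RNA would make up no more than 0.431% of any of the 10 genes' Treg level in cKO and 0.659% in WT. The Treg rule itself limits myeloid UMIs, so these rates are no upper bound on myeloid RNA. The 4 NK cell markers summed to 159 CPM in cKO and 5.25 CPM in WT, where Ncr1 and Klra8 were at 0. Only 1 of the 4 reached 10 CPM in cKO, so the sum does not describe the list as a whole. The 5 dendritic cell markers lay the other way, with sums of 331 CPM in cKO and 432 CPM in WT. In each library 2 of them reached 10 CPM. The part of NK or dendritic cell RNA in the results was not tested. Of 16 genes known to respond to tissue dissociation, 12 lay above 0 and 4 below. At least 1.5-fold higher in cKO were 4, all heat-shock genes, and 1 was lower. Hspa1a stood at 271 CPM in cKO and 115 CPM in WT, with Hspa8 at a log2 ratio of 1.12, Hspa1b at 0.99 and Dnajb1 at 0.78. Hspa1a was also higher in cKO outside Treg cells, at 1.31 in CD8 T and 1.70 in myeloid cells. The 16 genes took a median of 0.808% of UMIs per Treg cell in cKO and 0.633% in WT.

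Where Treg cells were limited to those below the pooled median of that share, 1095 in cKO and 1942 in WT, each of the 10 genes kept its sign. Rel was then at a log2 ratio of -1.16, Bcl3 at 1.21, Nfkbid at 0.70, Nfkbia at 0.69 and Nfkbiz at 0.61. Relb, at 0.47, was no longer past the size rule. The positive ratios of these 5 genes were smaller in such cells and that of Rel was farther from 0.

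Promoter windows from RefSeq (GRCm38.p6, the assembly of mm10), 250 bases before to 50 after an annotated start, were available for 7 of the 10 genes, in 12 windows. They were searched on both strands for the NF-kB (kB) consensus decamer. Of the 7 genes 6 held at least 1 match, including Rel and Tnfaip3, which were lower in cKO, and Rela held none. In all windows of the same length 1480 of 32851 (4.51%) held a match, and 1388 of 27025 genes (5.14%). A match here is a description of letters, not a bound site or a cause, and the single-cell data carry no measure of binding. The stretches with matches, 5' to 3' on the gene's strand with matches in capitals, are shown because these genes lay on both sides of WT while sharing the motif.
Rel, chr11:23771026-23771086, minus strand: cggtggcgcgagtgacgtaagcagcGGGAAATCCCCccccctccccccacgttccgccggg
Tnfaip3, chr10:19015501-19015560, minus strand: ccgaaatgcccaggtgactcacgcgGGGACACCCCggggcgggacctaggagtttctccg
Tnfaip3, chr10:19015411-19015447, minus strand: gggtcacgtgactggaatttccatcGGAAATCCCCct
Nfkbia, chr12:55492648-55492701, minus strand: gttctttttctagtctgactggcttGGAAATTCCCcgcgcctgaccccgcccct
Nfkbid, chr7:30422156-30422259, plus strand: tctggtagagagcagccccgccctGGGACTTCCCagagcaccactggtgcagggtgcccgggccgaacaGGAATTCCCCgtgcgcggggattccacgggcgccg
Bcl3, chr7:19822744-19822778, minus strand: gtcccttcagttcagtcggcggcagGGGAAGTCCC
Nfkb2, chr19:46305680-46305714, plus strand: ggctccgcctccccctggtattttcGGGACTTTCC
The capitals in Rel span overlapping matches on both strands, and Nfkb2 has further matches in its other windows.

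The differences between libraries were also present in the share of Treg cells that held a UMI. Each cell was thinned to 4000 UMIs, which left out 332 of the cKO and 95 of the WT Treg cells as too shallow. Bcl3 was found in 38.4% of 2502 cKO Treg cells (36.5 to 40.3) and 16.9% of 3145 WT Treg cells (15.6 to 18.3), against 55.1% and 34.8% before thinning. Rel was found in 45.3% of cKO (43.3 to 47.3) and 57.0% of WT Treg cells (55.3 to 58.8), against 58.9% and 71.8% before thinning. The shares lay on the same side of WT as the levels for both genes.

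Nfkbia was found in most Treg cells of both libraries, 91.3% in cKO (90.2 to 92.4) and 83.8% in WT (82.5 to 85.1), and the unthinned shares were 96.4% and 95.4%. The libraries differed more in its UMIs per cell, with a median of 5 and a 90th percentile of 16 in cKO and a median of 3 and a 90th percentile of 10 in WT. Tnfaip3 was found in 59.2% of cKO (57.2 to 61.1) and 72.5% of WT Treg cells (70.9 to 74.1), and unthinned in 76.4% and 91.9%. Of the remaining genes, Nfkbid was found in 25.2% of cKO and 16.3% of WT Treg cells, Nfkbiz in 48.8% and 33.9%, and Relb in 43.0% and 30.9%. Nfkb1 was found in 71.3% of cKO and 65.9% of WT Treg cells, Nfkb2 in 52.7% and 43.1%, and Rela in 28.4% and 24.6%. Before thinning, Rela at 45.2% in cKO and 47.9% in WT and Nfkb1 at 83.6% and 85.6% lay on the other side of WT from their levels, and cKO cells were shallower.

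**Figure D3:**
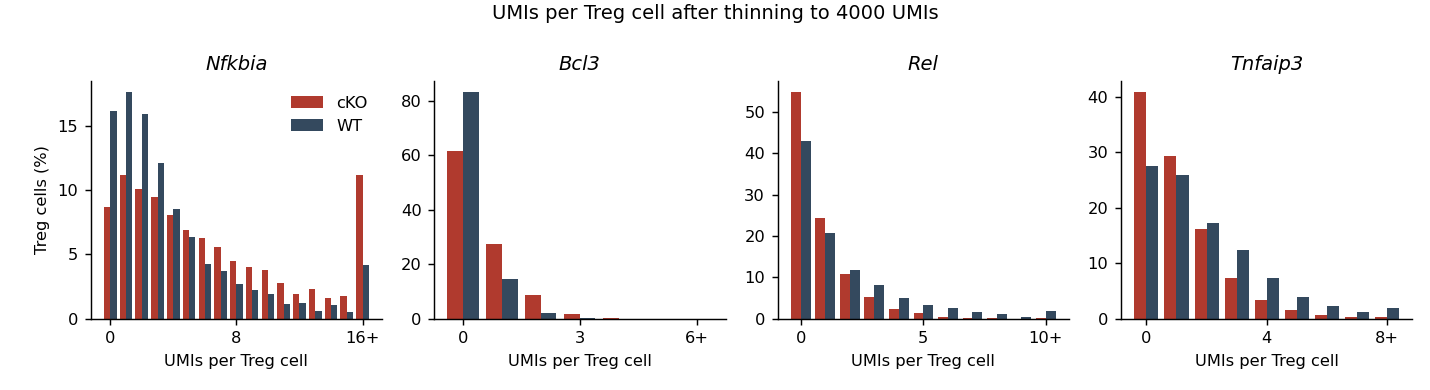
Percent of Treg cells (y axis) by number of UMIs per cell (x axis, the last bar holding that number or more) for Nfkbia, Bcl3, Rel and Tnfaip3 after thinning to 4000 UMIs; cKO in red on the left, WT in dark blue on the right. The cKO cells reach higher UMI numbers of Nfkbia and are less often at 0 for Bcl3, and more often at 0 for Rel and Tnfaip3.

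Single Treg cells held several of these transcripts at once. At 4000 UMIs a cKO Treg cell held a median of 5 of the 10 genes and a WT Treg cell a median of 4, with 5 or more in 61.2% of cKO and 48.9% of WT cells. None of the 10 was found in 0.320% of cKO and 0.668% of WT cells. Over these cells Spearman's rho between pairs of the 10 genes ranged in cKO (n = 2502) from 0.00259 to 0.362 and in WT (n = 3145) from 0.00844 to 0.323, over 45 pairs. All points of a library share its preparation, and most values are weak. Nfkbia had the most UMIs per cell of the 10 genes, with means of 7.05 in cKO and 4.22 in WT. The part of UMI numbers in the values of rho was not tested. Of the pairs, 5 exceeded 0.2 in both libraries. Nfkbia took part in 4 of them: with Nfkbiz at 0.362 in cKO and 0.276 in WT, with Rel at 0.311 and 0.283, with Nfkb1 at 0.282 and 0.207, and with Nfkbid at 0.265 and 0.209. The remaining pair was Nfkb1 with Rel, at 0.264 in cKO and 0.323 in WT. Rel and Nfkbia thus tended to occur in the same cells within each library, while their levels between libraries lay on opposite sides of WT.

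The Treg class was then split by UMIs of genes outside the NF-kB set, once for each gene or gene pair, which gave 8 strata. Every split used all Treg cells, so strata of different splits hold many of the same cells. Rel was at least 1.5-fold lower in cKO in 8 of 8 strata, with log2 ratios of -0.98 to -0.67, where 1.93% of the 8090 genes measured in every stratum were lower by that rule in all of them. Nfkbia (0.67 to 1.03), Nfkbid (0.86 to 1.11), Nfkbiz (0.69 to 0.92) and Bcl3 (1.25 to 1.59) were at least 1.5-fold higher in 8 of 8, where 2.31% of those genes were. Relb was higher by the rule in 3 of 8 strata and above 0 in 8. Tnfaip3 was below 0 in 8 strata, from -0.66 to -0.34, and past the rule in 2. Nfkb1, Nfkb2 and Rela were above 0 in all 8 and past the rule in none. Of all genes 31% were above 0 in every stratum and 33.3% below 0, so that a sign shared by the 8 strata was common. Each stratum is part of the same 2 libraries, so the strata are no replicates of one another.

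**Figure D4:**
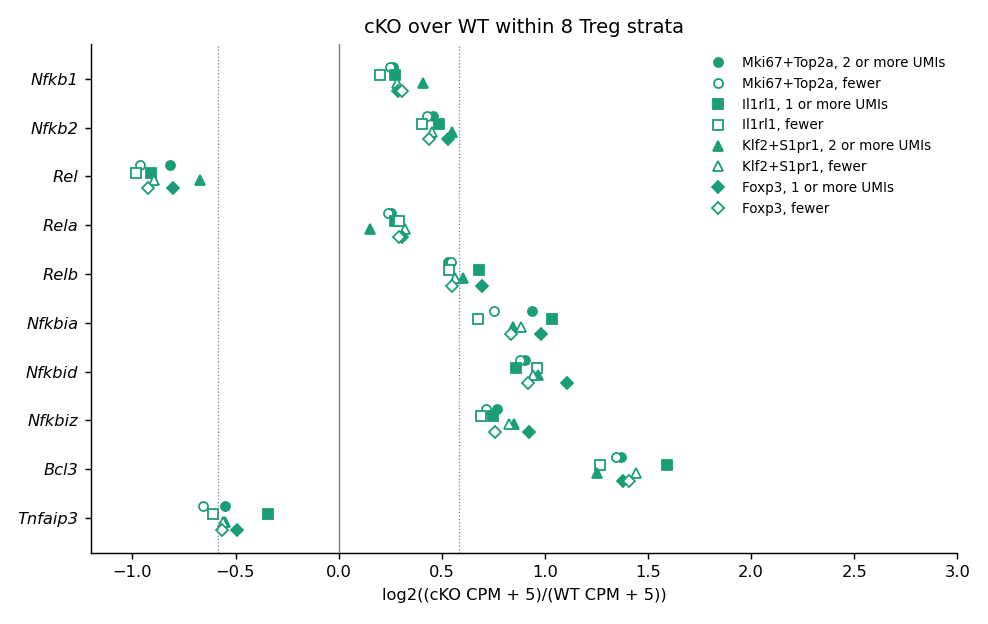
Log2 ratio of cKO over WT (x axis) for each gene (rows) in the 8 Treg strata; marker shape gives the gene or gene pair that splits the cells, filled markers the cells at or above the UMI minimum, open markers the rest, and dotted lines 1.5-fold. Rel lies left of the lower line in all strata, and Nfkbia, Nfkbid, Nfkbiz and Bcl3 right of the upper line.

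Within each library the genes also varied with the state of the Treg cell. Cells with 2 or more UMIs of the cycle genes Mki67 and Top2a made up 12.5% of cKO and 21.1% of WT Treg cells. All 10 NF-kB genes were lower in them than in the remaining Treg cells in both libraries, from -0.74 to -0.25 in cKO and -0.84 to -0.28 in WT on the log2 scale. Nfkbia, Nfkbid, Nfkbiz and Tnfaip3 were at least 1.5-fold lower in both, where 5.01% of all genes in cKO and 4.75% in WT were. These cells were deeper, with medians of 13619 UMIs in cKO and 18151 in WT, against 6084.5 and 7650 in the rest, and the part of depth was not tested. When cycling cells were left out, each of the 10 genes kept its sign in cKO over WT.

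Cells with a UMI of Il1rl1, which encodes the IL-33 receptor ST2 that signals to NF-kB, made up 28.8% of cKO and 17.1% of WT Treg cells. In cKO 4 of the 10 genes were at least 1.5-fold higher in them than in the rest, where 0.931% of all genes were, and in WT 2 were, where 0.448% of all genes were. Cells with an Il1rl1 UMI were deeper, with medians of 7075 UMIs in cKO and 10839 in WT, against 6187 and 8240 in the rest, and the part of depth was not tested. Nfkbiz was higher by log2 ratios of 0.87 in cKO and 0.81 in WT, and Rel by 0.66 and 0.59. Nfkb1 was higher by 0.63 in cKO and 0.55 in WT, and Nfkbia by 0.83 and 0.47. Rela differed little, by 0.08 and 0.09. Nfkbia reached 2254 CPM in Il1rl1-bearing cKO cells and 1099 CPM in such WT cells, and 1265 CPM in the remaining cKO cells and 791 CPM in the remaining WT cells. In cells without an Il1rl1 UMI the 10 genes kept their sides of WT. Splits by Klf2 and S1pr1, genes of recirculating T cells, and by Foxp3 gave no difference of 1.5-fold for any of the 10, where 1.29 and 0.458% of all genes in cKO and 1.33 and 0.491% in WT passed the rule in either direction. Rel in WT was lowest by the first split, at -0.36.

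In the CD8 T class Rel stood at 133 CPM in cKO (123 to 144) and 302 CPM in WT (287 to 319), or 44.1% of WT (40.2 to 48.3). Rel was the gene lower by the size rule, where 8.18% of all genes were, and Bcl3 the gene higher by it, where 3.37% of all genes were. Bcl3 stood at 62.7 CPM in cKO (56.0 to 69.9) and 31.9 CPM in WT (26.9 to 37.6). The other genes ranged from -0.05 for Tnfaip3, whose interval of the ratio spanned 1, to 0.51 for Nfkb2. The median was 0.41 over the 10 genes and -0.04 over all 8746 genes tested. Markers of other cell types differed in this class. The NK list summed to 417 CPM in cKO and 172 CPM in WT. In each library only 1 of its 4 genes reached 10 CPM. The 3 neutrophil markers summed to 39.8 CPM in cKO, with all at 0 in WT. The myeloid list summed to 250.3 CPM in cKO and 436 CPM in WT, and the dendritic cell list to 294 and 567 CPM. The part of these cell types in the values was not tested.

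Several of the CD8 T values depended on the limits of the class. With cells limited to a Treg marker sum under 6 UMIs and, at the same time, to at most 2 UMIs of Lyz2 and C1qa, 207 cKO and 32 WT cells were left, and which of both limits moved a value was not tested. In this small set 41.8% of all genes passed the size rule in either direction, and 5 of the 10 genes did. Nfkb2 and Relb were higher in cKO by it, and Rel, Nfkbid and Nfkbiz were lower. Nfkb2 was at 187.5% of WT (130 to 280) and Relb at 158% (108 to 238). Rel stood at 84.8 CPM in cKO and 154 CPM in WT, or 55.0% of WT (41.0 to 74.6). Bcl3 stood at 45.3 CPM in cKO and 64.0 CPM in WT, or 70.8% of WT (45.5 to 113). Nfkbid was at 46.9% of WT (29.2 to 77.2), Nfkbiz at 43.3% (29.1 to 65.4) and Nfkbia at 99.1% (84.5 to 117). Tnfaip3 was at 151% of WT (120 to 192), and its log2 ratio of 0.584 with the pseudocount was just short of the rule. Thinning all cells to 4000 UMIs before the class rules moved Bcl3 the other way, to a log2 ratio of 1.88. It took Nfkb2 to 0.91, Relb to 0.81 and Rela to 0.69, with Rel at -0.81. At that depth 326 cKO and 123 WT cells met the CD8 T rule, and no interval was computed for these values. In the set with 32 WT cells, 5 of 10 was near the share over all genes. Only 27 to 65 WT UMIs lay behind its values of Rel, Nfkb2, Relb, Bcl3, Nfkbid and Nfkbiz, which are a description of a small set. Whether the Treg and CD8 T differences themselves differ was not tested.

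In the myeloid class none of the 10 genes passed the size rule, where 9.43% of all 8559 genes passed it in either direction. Rel stood at 186 CPM in cKO (174 to 198) and 270 CPM in WT (250 to 292), or 68.8% of WT (62.0 to 76.3). Nfkbia stood at 1336 CPM in cKO and 1034 CPM in WT, and Bcl3 at 86.5 and 56.5 CPM, or 153% of WT (126 to 188). With the pseudocount the log2 ratio of Bcl3 was 0.57, short of the rule. For Nfkb2, Rela, Relb, Nfkbid and Nfkbiz the interval of the ratio spanned 1.

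Markers of T cells stood in myeloid cells at 12.2 to 15.0% of their Treg level in cKO and 18.9 to 21.4% in WT. T cell RNA at the highest of these rates in each library would make up 16.2 to 29.5% of the genes' myeloid levels in cKO and 15.9 to 50.7% in WT. Without cells that held a Cd3e or Cd3g UMI, 218 cKO and 41 WT cells were left, where none of the 10 genes and 16.5% of all genes passed the size rule. Rel was then at 183 CPM in cKO and 232 CPM in WT, or 78.9% of WT (66.3 to 94.3). Nfkbia was at 1235 CPM in cKO and 1489 CPM in WT, or 82.9% (77.5 to 88.8), and Nfkbiz at 77.2% (62.9 to 95.3). Bcl3 was at 81.9% (61.7 to 110), so that Nfkbia, Nfkbiz and Bcl3 were on the other side of WT from Treg cells. The Rel level was below WT in cKO in the 3 full classes and in both narrower ones.

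**Figure D5:**
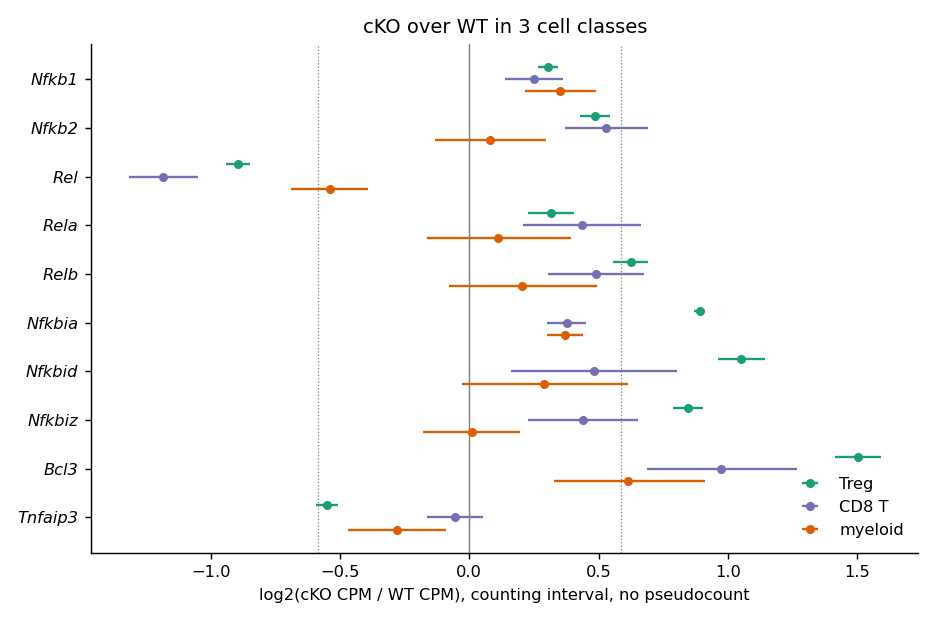
Log2 ratio of cKO over WT without a pseudocount (x axis) for each gene (rows) in Treg (green), CD8 T (violet) and myeloid cells (orange) of the full classes; lines are 95% counting intervals and dotted lines mark 1.5-fold. Rel lies left of 0 in all 3 classes, and the inhibitors lie farther from 0 in Treg cells than in the other classes, Tnfaip3 in the opposite direction.

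Over the 6 combinations of class and library, cKO Treg cells had the highest level of 8 of the 10 genes. Rel and Tnfaip3 were highest in WT Treg cells. For Rel the 3 full cKO classes all lay below the 3 full WT classes. The cKO levels ran from 133 CPM in CD8 T cells to 214 CPM in Treg cells. The WT levels ran from 270 CPM in myeloid cells to 398 CPM in Treg cells. Only the WT CD8 T and myeloid intervals overlapped as neighbours. In the narrower CD8 T class, with 32 WT cells, WT Rel was at 154 CPM, below cKO Treg and myeloid cells. For Nfkbia the order in the full classes was cKO Treg, cKO myeloid, WT myeloid, WT Treg, cKO CD8 T and WT CD8 T cells. Neighbouring intervals did not overlap. In myeloid cells without a Cd3e or Cd3g UMI the order of the libraries turned, with 1235 CPM in cKO and 1489 CPM in WT. For Rela each of the 5 neighbouring pairs overlapped, over a range of 57.9 to 79.1 CPM. Tnfaip3 was higher in both T cell classes than in myeloid cells of either library, where it stood at 130 CPM in cKO and 157 CPM in WT.

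Other genes of the pathway were described in Treg cells in the same way, and their counts stand against 4.21% of all genes that were higher by the size rule and 4.04% that were lower. Of the receptors that signal to NF-kB, 10 of 14 reached 5 CPM, with a median log2 ratio of 0.45, which was 0.14 over all 14 with no minimum level. Of these, 4 were at least 1.5-fold higher in cKO and none lower: Il1rl1 stood at 114 CPM in cKO and 46.6 CPM in WT, the TNF receptor Tnfrsf1a at 19.8 and 8.68 CPM, the TL1A receptor Tnfrsf25 at 31.8 and 19.0 CPM, and Tnfrsf4 (OX40) at 3320 and 2201 CPM. Of the IKK complex and its adaptors, 23 of 25 were measured, with a median of 0.12. Here 3 were higher by the rule and none lower, namely Traf2 at 0.72, Traf1 at 0.68 and Birc3 at 0.67, while the IKK-related kinase Ikbke was at 0.54. The remaining IkB genes Nfkbib, at 0.30, and Nfkbie, at 0.12, were short of the rule. Of 10 negative regulators, with a median of 0.09, only Peli1 passed it, at 410 CPM in cKO and 217 CPM in WT, and Zc3h12a was at 0.47, Tnip1 at 0.28 and N4bp1 at 0.21.

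Of 19 known NF-kB target genes 18 were measured, with 15 above 0 and 3 below, and a median of 0.37. By the rule 6 were higher and 2 lower. The chemokine gene Ccl4 stood at 163 CPM in cKO and 58.0 CPM in WT, and the cytokine gene Il1b at 275 and 94.2 CPM. Il1b stood at 5343 CPM in cKO myeloid cells and 4478 CPM in WT myeloid cells, and the part of myeloid RNA in its Treg value was not tested. The chemokine genes Cxcl2, at 28.0 CPM in cKO and 74.2 CPM in WT, and Ccl22, at 7.69 and 24.4 CPM, were the 2 lower ones. The medians of the 5 pathway lists lay between 0.09 and 0.45, that of the dissociation-response genes lay inside this range at 0.21, and that over all genes was -0.02.

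By Euclidean distance between centred log2(CPM + 5) profiles over the 6 points, among 5107 genes, the genes nearest to Nfkb1 were Lcp2 at 0.05 and Nfkbib at 0.08. Nearest to Rel were Irs2 at 0.23 and Prdx4 at 0.30, with log2 ratios in Treg cells of -0.78 and -0.86. Srgn was among the nearest 2 of Nfkbia, Nfkbid and Nfkbiz, at distances of 0.27, 0.37 and 0.29, beside Irgm2, Jdp2 and Cflar. The nearest to Bcl3 were Osbpl9 and Klf2, at 0.28 each, with Klf2 at a log2 ratio of 1.45 in Treg cells. For Tnfaip3 they were Tut4 at 0.14 and Dtd1 at 0.25, for Nfkb2 Fkbp1a and Baz1a, for Rela Rbmxl1 and Tsg101, and for Relb Ptpn18 and Ip6k1.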

How the data were processed

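The deposited matrices contain unnormalized UMI counts, all whole numbers, that the authors made with Cell Ranger 5.0.1 on mm10, per the submitters' processing notes. The annotation release, the use of strand or introns, and any filter or doublet removal before deposit are not stated in the sources. Of 32285 gene identifiers 32158 had an entry in GENCODE M21 (mm10), from which coordinates were taken. Groups came from the genotype labels, with 1 library each, so no test, p-value or standard error was computed.

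Barcodes with at least 500 genes and under 10% mitochondrial UMIs were kept. For each class in a library the UMI sums were scaled to CPM. Exact 95% intervals are Poisson for levels, conditional binomial for ratios (with no pseudocount) and Clopper-Pearson for shares. PCR and capture errors are outside these intervals. Log2 ratios use a pseudocount of 5 CPM, which understates differences of low genes. All 10 genes reached 5 CPM in each class. Shares used cells thinned to 4000 UMIs (seed 1). No class that lacks these genes was available as a background for shares. Scrublet (in scanpy 1.11.5) marked 1 of 7868 cells and gave no usable call, so doublets were left in. The calculation was tested on simulated counts.

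The 10 genes, the lists, the strata and the tests were chosen with earlier results of these data known. The text names the 10 genes, up to 4 genes per list with the largest absolute log2 ratio in Treg cells and, per gene, the 2 nearest profiles, among genes of at least 20 CPM. Receptor and immunoglobulin segments, mitochondrial and ribosomal genes, unnamed models, Xist, Tsix and Y-linked genes were left out of that search. Altogether 17 alternatives were planned and 2 were added after seeing the data. Software was numpy 2.4.6, scipy 1.17.1, pandas 2.3.3 and matplotlib 3.10.9.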

Additional observations from a re-analysis of the deposited data

How the results depend on the processing

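In Treg cells each of the 10 genes kept its sign under all 13 alternatives. A change of pseudocount cannot turn a sign, so the pseudocount settings are no check of it. The number at least 1.5-fold apart was 6 and ranged from 5 to 7. Log2 ratios ranged from -1.16 to -0.83 for Rel, 1.16 to 1.48 for Bcl3, 0.69 to 1.0 for Nfkbia, 0.70 to 1.04 for Nfkbid and 0.61 to 0.89 for Nfkbiz. Relb was past 1.5-fold in 9 and Tnfaip3 in 3 of the 13. Scaling by the median ratio between libraries shifted Treg values by 0.02. In CD8 T cells the count was 2. It became 5 with cells limited to a Treg marker sum under 6 and at most 2 Lyz2 and C1qa UMIs, both limits at once. There 41.8% of all genes passed the rule. The count was also 5 when cells were thinned to 4000 UMIs before the class rules. In myeloid cells the count of 0 became 1 with a pseudocount of 1 CPM, through Bcl3 at 0.61. It became 2 with thinning, through Rela at 0.65 and Relb at 0.59, and the cause was not tested. Outside the narrower CD8 T and myeloid classes, the share over all genes was computed for the main setting only. The counts under the other alternatives therefore have no such share beside them. Over all classes 319 of 330 values kept their sign and 11 did not. Of those 11, 1 had been past 1.5-fold: Bcl3 in CD8 T cells, at -0.46 under those joint limits. Bcl3 was at 1.88 there with thinning, in 326 cKO and 123 WT cells and without an interval. The 2 alternatives chosen after seeing the data were Treg cells without an Hspa1a or Hspa1b UMI, where the count stayed at 6 and Nfkbia was at 1.0, and myeloid cells without a Cd3e or Cd3g UMI. The list medians in Treg cells stayed above 0 under all 14 alternatives for the 5 pathway lists; receptors were at 0.14 with no minimum level, and the dissociation-response list was at -0.03 in cells below the pooled median of its share.

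No paired analysis was possible because each group has 1 library. The narrower CD8 T and myeloid classes held 32 and 41 WT cells, which limits their precision. Leaving out a replicate was not possible for the same reason.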
